A study of Homo sapiens with 12 samples.

Results

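The mRNAs of 9 subunits of the translation initiation factor eIF3 were followed in MOLM13 cells after targeting of YBX1. They are the 8 subunits of the eIF3 octamer (EIF3A, EIF3C, EIF3E, EIF3F, EIF3H, EIF3K, EIF3L and EIF3M) and EIF3D, which sits at its edge. The genes were chosen by subunit name, with earlier results of these data known. They make up 9 of the 19755 protein-coding genes of the deposited table. All 9 had a mean value above the minimum that was set for testing, so no member was lost to the filter.

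MOLM13 is an established human cell line of acute myeloid leukaemia. All 12 libraries came from MOLM13 cells that stably carried Cas9, selected with blasticidin at 5 µg/ml, and that had received a second lentiviral vector with a puromycin resistance and a red fluorescent protein. In the control group this vector held no guide against YBX1; the labels call it an empty vector in one place and a non-targeting vector in another. In the groups sgRNA1 and sgRNA2 it held 1 of 2 guide RNAs against YBX1, the gene of an RNA-binding protein with a cold-shock domain. Cells were kept in puromycin at 1 µg/ml, sorted for high red fluorescence and lysed 7 days after transduction. Each group had 4 libraries, numbered 1 to 4, and each library was a sorted mixed population of this 1 line, not a clone. The control cells had no cut at YBX1, so effects of cutting by Cas9 and of losing YBX1 cannot be told apart. In such bulk samples, fewer cells with an mRNA and less of it per cell cannot be told apart either.

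eIF3 is the large scaffold that holds the small ribosomal subunit ready for the initiator tRNA and the mRNA. Its octamer is built from subunits with a PCI domain (EIF3A, EIF3C, EIF3E, EIF3K, EIF3L, EIF3M) and subunits with an MPN domain (EIF3F, EIF3H), a layout shared with the lid of the proteasome and with the COP9 signalosome. EIF3D is attached through EIF3E and can bind the cap of some mRNAs. In leukaemia cells, as in other dividing cells, eIF3 is needed for bulk protein synthesis.

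Many mRNAs of the translation machinery start with a run of pyrimidines, so the bases around the annotated start are shown for 5 of the 9 members. They were taken from promoters of the RefSeq table (GRCh38.p14). No entry was found there for EIF3A and EIF3L. EIF3E and EIF3H may also have a promoter there, but their sequences are not reported here. Each line gives 30 bases of the coding strand, 15 before and 15 from the annotated start onwards, and capitals mark the longest run of C and T that reaches within 5 bases of the start.
EIF3D: gcgcgcgcatgTTTCCTCTTTTCCTggttt
EIF3F: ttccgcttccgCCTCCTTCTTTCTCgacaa
EIF3M: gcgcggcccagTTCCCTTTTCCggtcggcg
EIF3K: ttccgtttccaccaCCTCTTCCTgttcccg
EIF3C: ctctgtcccaCCCCCgtggcaggcagccct

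The windows lie at chr22:36529152-36529181 on the reverse strand for EIF3D, and on the forward strand at chr11:7987322-7987351 for EIF3F, chr11:32583816-32583845 for EIF3M, chr19:38619173-38619202 for EIF3K and chr16:28688543-28688572 for EIF3C. The run was 14 bases long in EIF3D and in EIF3F, and 1.72% of 35116 promoters had a run at least as long. It was 11 bases in EIF3M (4.49% of promoters), 9 in EIF3K (8.33%) and 5 in EIF3C (35.7%). Bases before the annotated start count in these lengths and are not part of the mRNA as annotated. The run began at position -4 from the start in EIF3D, EIF3F and EIF3M, -1 in EIF3K and -5 in EIF3C. In EIF3C the whole run lies before the start. These are matches of letters and not tested sites.

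YBX1 mRNA was lower in every guide library, which checks the labels. Its level was 12.86 ± 0.09 in control, but 11.18 ± 0.14 in sgRNA1 cells and 11.93 ± 0.10 in sgRNA2 cells (means of log2 values ± SD, n = 4 each). All values are rlog values, that is normalised read counts on a log2 scale with shrinkage of weakly expressed genes. The depth of the libraries is unknown, so the spread between libraries is the only measure of error. All 10 myeloid markers looked at were above the minimum for testing, with means of 8.45 to 12.3. Among markers of other cell types, the epithelial keratins KRT18 (7.67) and KRT8 (6.63) were above it as well.

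Of the 9 subunits, EIF3L and EIF3D fell in the comparison of both guides with control, EIF3F passed there with the library number in the model but not without it, and the others did not pass. EIF3L and EIF3D had 62.6% and 80.3% of the control level left over both guides. In the comparison of both guides with control (8 against 4 libraries, limma, adjusted p under 0.05 over 10982 genes), 2 of the 9 members fell and 0 rose, where 0.0820% of all genes fell. With the library number as a block, which treats same-numbered libraries as matched, 3 of the 9 fell, against 2.87% of all genes. The median log2 fold change was -0.09 over the members and -0.01 over all genes tested. A negative value was found in 8 of the 9 members and in 5885 of the 10982 genes tested.

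**Figure D1:**
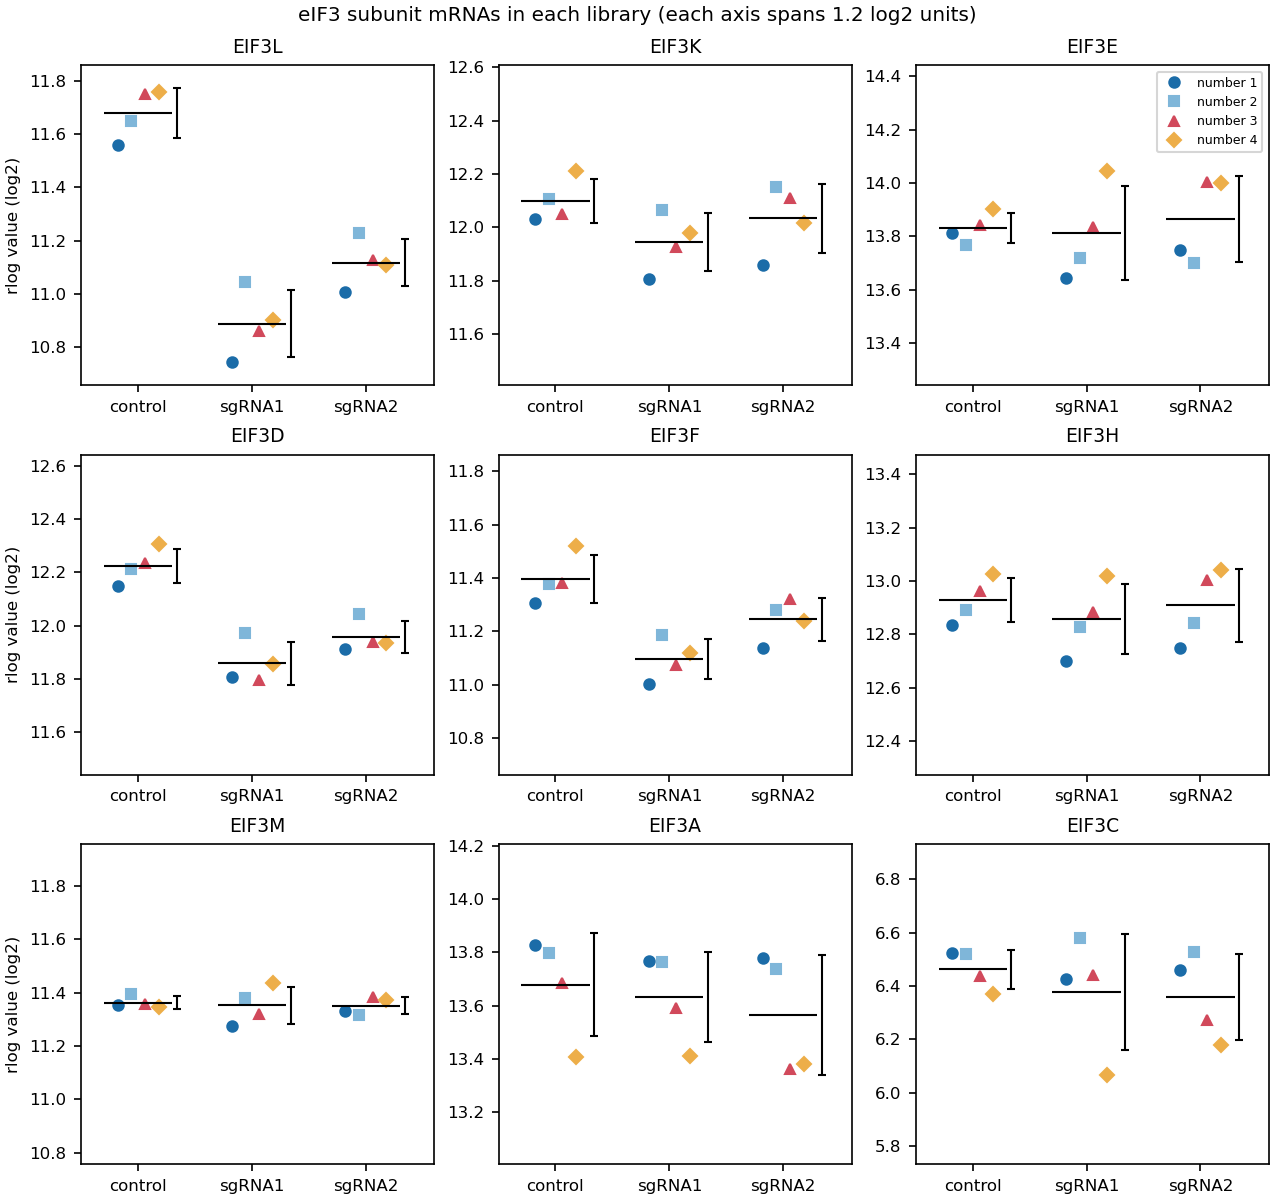
Level of the 9 subunit mRNAs (rlog, log2, vertical axis of 1.2 units in each panel) in the 12 libraries by group, with the symbol giving the library number. Lines are group means and bars SD (n = 4). EIF3L and EIF3D are the panels in which all 8 guide libraries lie below all 4 controls, and in the EIF3A, EIF3E and EIF3H panels the symbols sort by number and not by group.

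EIF3K and EIF3L are PCI subunits that bind each other at the edge of the octamer. EIF3L was at 11.56, 11.65, 11.75 and 11.76 in control libraries 1 to 4. It was at 10.74, 11.05, 10.86 and 10.90 with sgRNA1. With sgRNA2 it was at 11.01, 11.23, 11.13 and 11.11. Every guide library was thus below every control, with a gap wider than the range of any group, and the 2 guides met only at sgRNA1 library 2 and sgRNA2 library 1. EIF3L fell by 0.68 on the log2 scale for both guides (SE 0.078, adjusted p = 0.00166 by limma), the second smallest p of all genes tested, by 0.79 with sgRNA1 (SE 0.071, adjusted p = 0.000100) and by 0.56 with sgRNA2 (SE 0.071, adjusted p = 0.00627). Each guide library lay 0.42 to 0.89 below the control of its number.

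EIF3L kept its call for both guides when any 1 library was left out (adjusted p up to 0.0147), and missed it without all libraries numbered 3 (0.0549) or 4 (0.0600). For sgRNA2 alone these fits gave 0.301 and 0.356. With the block it passed in every one of these fits.

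The values of EIF3K were 12.03, 12.11, 12.05 and 12.21 in control, 11.81, 12.07, 11.93 and 11.98 with sgRNA1, and 11.86, 12.15, 12.11 and 12.02 with sgRNA2. The groups overlapped, and library 1 was the lowest of each group. Its log2 fold change was -0.11 for both guides (SE 0.064, adjusted p = 0.766, block 0.141), with 6 of 8 guide libraries below the control of their number. It was -0.15 with sgRNA1 (adjusted p = 0.935, block 0.0638) and -0.06 with sgRNA2 (0.985, block 0.463). EIF3K was called with the block for both guides only without sgRNA2 library 3 (adjusted p = 0.0140), and for sgRNA1 only without that library (0.0124), control library 2 (0.0311) or control library 3 (0.0425).

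The difference between the partners within each library does not depend on a scaling factor of the whole library. EIF3L minus EIF3K was -0.47, -0.46, -0.30 and -0.45 in control, between -1.08 and -1.02 with sgRNA1, and between -0.99 and -0.85 with sgRNA2. No guide library reached a control, and no sgRNA1 library reached an sgRNA2 library. The mean difference from control was -0.57 for both guides (two-sided exact permutation p = 0.00404, the smallest that 495 arrangements allow). It was -0.64 with sgRNA1 and -0.50 with sgRNA2 (exact permutation p = 0.0286 each, the smallest that 70 arrangements allow). Adjusted over the 6 tests made on such differences these values became 0.0242, 0.0343 and 0.0343. The arrangements move libraries freely between groups and do not keep the pairing by number. Each such difference holds a called member, EIF3L or EIF3D, so these tests are not independent of those calls.

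**Figure D2:**
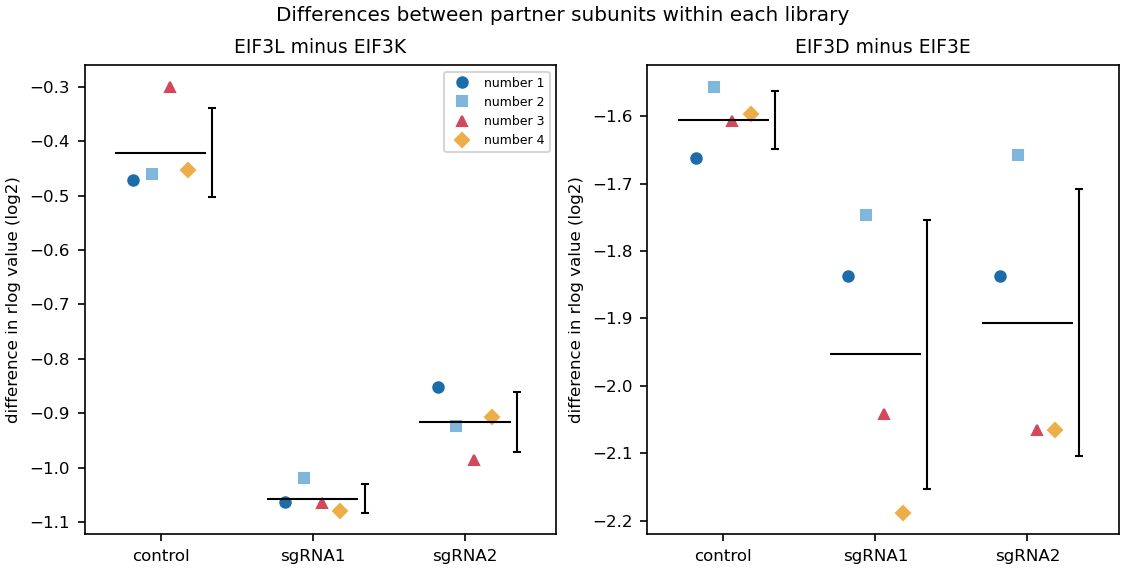
Difference in rlog value (log2, vertical axis) between EIF3L and EIF3K (left) and between EIF3D and EIF3E (right) within each of the 12 libraries, with group means and SD (n = 4) and the library number as symbol. On the left the control libraries lie at -0.47 to -0.30 and all guide libraries at -0.85 or below. On the right libraries 3 and 4 with a guide lie lowest.

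EIF3E and EIF3D are the next pair, since EIF3D is tied to the octamer through EIF3E. EIF3D was at 12.15, 12.21, 12.23 and 12.30 in control. It was at 11.81, 11.97, 11.80 and 11.86 with sgRNA1, and at 11.91, 12.04, 11.94 and 11.93 with sgRNA2. Every guide library was below every control, and library 2 was the highest of each guide group. Of all genes tested, 87 (0.792%) had all 8 guide libraries below all 4 controls, and EIF3L and EIF3D were 2 of them. EIF3D fell by 0.32 for both guides (SE 0.051, adjusted p = 0.0305) and by 0.37 with sgRNA1 (SE 0.056, adjusted p = 0.0307). With sgRNA2 its log2 fold change was -0.27 (SE 0.056), which missed the threshold without the block (adjusted p = 0.237) and passed with it (0.000952).

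The call of EIF3D without the block was narrow. For both guides it held in 2 of 12 fits that left out 1 library, those without sgRNA1 library 2 (adjusted p = 0.0443) and without sgRNA2 library 2 (0.0142), and missed in the other 10 (0.0528 to 0.181). For sgRNA1 it held in 4 of 12 such fits, those without control library 1 (0.0418), sgRNA1 library 2 (0.0180), sgRNA2 library 1 (0.0349) or sgRNA2 library 2 (0.0346), and missed in the other 8 (0.0588 to 0.203). With the block it held in all 12 for either comparison, and the log2 fold change stayed between -0.36 and -0.29 for both guides.

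For EIF3E, the PCI subunit that carries EIF3D, the values were 13.81, 13.77, 13.84 and 13.90 in control, 13.65, 13.72, 13.84 and 14.05 with sgRNA1, and 13.75, 13.70, 14.01 and 14.00 with sgRNA2. The groups overlapped fully, and libraries 3 and 4 were the higher ones in each group. Its log2 fold change was 0.01 for both guides (SE 0.078, adjusted p = 0.992, block 0.949). EIF3D minus EIF3E was -1.61 ± 0.04 in control, and -1.95 ± 0.20 (sgRNA1) and -1.91 ± 0.20 (sgRNA2) with a guide (means ± SD, n = 4). The difference was -0.32 for both guides (two-sided exact permutation p = 0.00808, adjusted over the 6 tests 0.0242), -0.35 with sgRNA1 (exact p = 0.0286, adjusted 0.0343) and -0.30 with sgRNA2 (exact p = 0.0571, adjusted 0.0571). It was -0.16 in libraries 1 and 2 and -0.49 in libraries 3 and 4, where such small groups cannot reach the threshold.

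EIF3F, EIF3H and EIF3M form a module of their own, in which EIF3F and EIF3H carry the MPN domains. EIF3F was at 11.30, 11.38, 11.38 and 11.52 in control, at 11.00, 11.19, 11.07 and 11.12 with sgRNA1, and at 11.14, 11.28, 11.32 and 11.24 with sgRNA2. The sgRNA1 libraries were all below the controls, while sgRNA2 library 3 was above control library 1. Within numbers, all 8 guide libraries were below their control, which also held for EIF3L and EIF3D and for 6.25% of all genes tested.

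The log2 fold change of EIF3F was -0.23 for both guides (SE 0.060), -0.30 with sgRNA1 (SE 0.061) and -0.15 with sgRNA2 (SE 0.061). It passed with the block (adjusted p = 0.00815, 0.000171 and 0.0462) and not without it (0.252, 0.128 and 0.922). In libraries 3 and 4 alone it passed for sgRNA1 without the block as well (log2 fold change -0.35, adjusted p = 0.0424). The blocked call for both guides was missed without control library 1 (0.0523) and without all libraries numbered 1 (0.0704) or 4 (0.0579) and in libraries 3 and 4 alone (0.127), and for sgRNA2 it was missed in 10 of 12 fits that left out 1 library (0.0549 to 0.207), those other than without control library 2 or sgRNA2 library 3.

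EIF3H, the other MPN subunit, was at 12.83 to 13.03 in control, 12.70 to 13.02 with sgRNA1 and 12.75 to 13.04 with sgRNA2. EIF3M, a PCI subunit, was at 11.35 to 11.40, 11.28 to 11.44 and 11.32 to 11.38. Both overlapped fully between groups. The log2 fold changes for both guides were -0.05 (SE 0.068, adjusted p = 0.958, block 0.514) and -0.01 (SE 0.039, adjusted p = 0.986, block 0.893). EIF3M had the smallest standard error of the 9 members.

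EIF3A and EIF3C are the large PCI subunits on which the octamer assembles. EIF3A was at 13.83, 13.80, 13.69 and 13.41 in control, at 13.77, 13.76, 13.59 and 13.41 with sgRNA1, and at 13.78, 13.74, 13.36 and 13.38 with sgRNA2. It was high in libraries 1 and 2 and low in library 4 of every group. Its log2 fold change was -0.08 (SE 0.102, adjusted p = 0.948, block 0.318). EIF3C was at 6.46 ± 0.07, 6.38 ± 0.22 and 6.36 ± 0.16 in the 3 groups (mean ± SD, n = 4), and its log2 fold change was -0.09 (SE 0.084, adjusted p = 0.894, block 0.271).

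EIF3C is uncertain as a measurement. Of the stretches of 37 bases, the read length, in its coding sequence, 0.814% are found in no other gene, and 99.2% are shared with its near copy EIF3CL (GENCODE 29), which was listed at a mean of 1.39 in control and was not tested. The share found in no other gene was 100% for EIF3A, EIF3D and EIF3H, 98.5% for EIF3K and 92.3% for EIF3M, but 75.1% for EIF3E, 60.0% for EIF3L and 36.0% for EIF3F. EIF3L shared 31.0% with AL022311.1, a transcript annotated on the same strand and overlapping it, and 13.3% with the pseudogene EIF3LP2. EIF3F shared 59.7% with the pseudogene EIF3FP3. How the authors counted reads that match several genes is not stated, and the part of such reads in the changes of EIF3L and EIF3F was not tested. EIF3D shared no such stretch and overlapped no other gene.

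**Figure D3:**
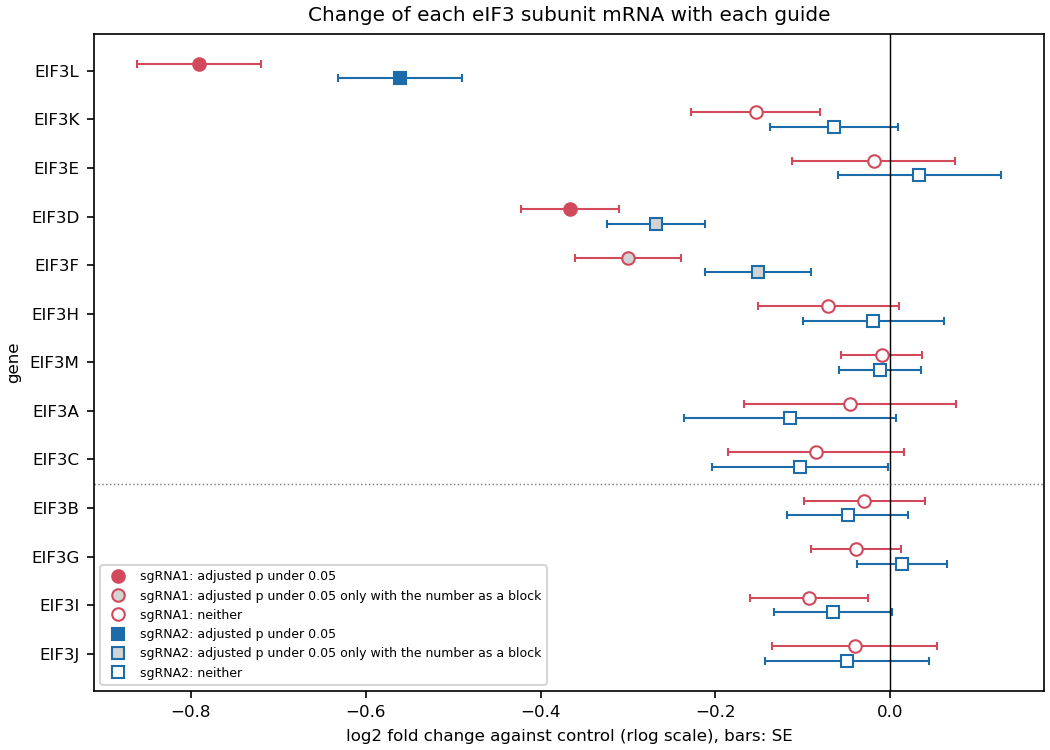
Log2 fold change against control (horizontal axis, rlog scale, bars are SE) of the 9 members and, under the dotted line, 4 other eIF3 subunits, with sgRNA1 (circles) and sgRNA2 (squares). Filled symbols had a limma adjusted p under 0.05, grey ones only with the library number as a block, and open ones neither. EIF3L and EIF3D lie farthest to the left with both guides. EIF3F lies at -0.30 and -0.15, EIF3K with sgRNA1 also at -0.15, and the other points between -0.12 and 0.03.

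The guides left different amounts of YBX1 mRNA, so they were set against each other. Against control, 2 of the 9 members fell with sgRNA1 (0.0455% of all genes fell) and 1 with sgRNA2 (0.0364%). With the block 3 fell with each guide, against 1.83% and 1.78% of all genes. YBX1 was higher with sgRNA2 than with sgRNA1 by 0.75 (SE 0.076, adjusted p = 0.00133 by limma), and 31.3% and 52.6% of its control level remained. In that comparison 0 of the 9 members were called by limma (0.00911% of all genes were), with or without the block. Without the block 2 members (EIF3L and EIF3F) had an unadjusted limma p under 0.05, as had 92 of the 10982 genes tested. Both guides were compared with the same 4 control libraries.

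The level of EIF3L that remained was 57.8% with sgRNA1 and 67.8% with sgRNA2, and the guides differed by 0.23 (SE 0.071, adjusted p = 1.00, block 0.122). For EIF3D the remaining levels were 77.6% and 83.1% (difference 0.10, SE 0.056), and for EIF3F 81.2% and 90.0% (difference 0.15, SE 0.061), with adjusted p of 1.00 each and 0.698 and 0.561 with the block. In EIF3L, EIF3D, EIF3F, EIF3K and EIF3H the sgRNA1 library was below the sgRNA2 library of the same number for all 4 numbers, which held for 8.77% of all genes tested. In EIF3A it held for 1 number of 4, and in EIF3C, EIF3E and EIF3M for 2.

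The members also differed in what their variation followed. Group accounted for 93.1% of the sum of squares of EIF3L over the 12 libraries, 87.1% of that of EIF3D and 74.7% of that of EIF3F. Library number accounted for 86.4% in EIF3H, 83.9% in EIF3A, 75.2% in EIF3E and 72.3% in EIF3C, with 9.28% or less for group. EIF3K was split, with 31.3% for group and 48.4% for number, and EIF3M followed neither (1.65% and 33.2%). Libraries 3 and 4 were lower than libraries 1 and 2 in EIF3A (-0.31) and EIF3C (-0.21) and higher in EIF3E (0.21) and EIF3H (0.18). What a number stands for is not in the labels.

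**Figure D4:**
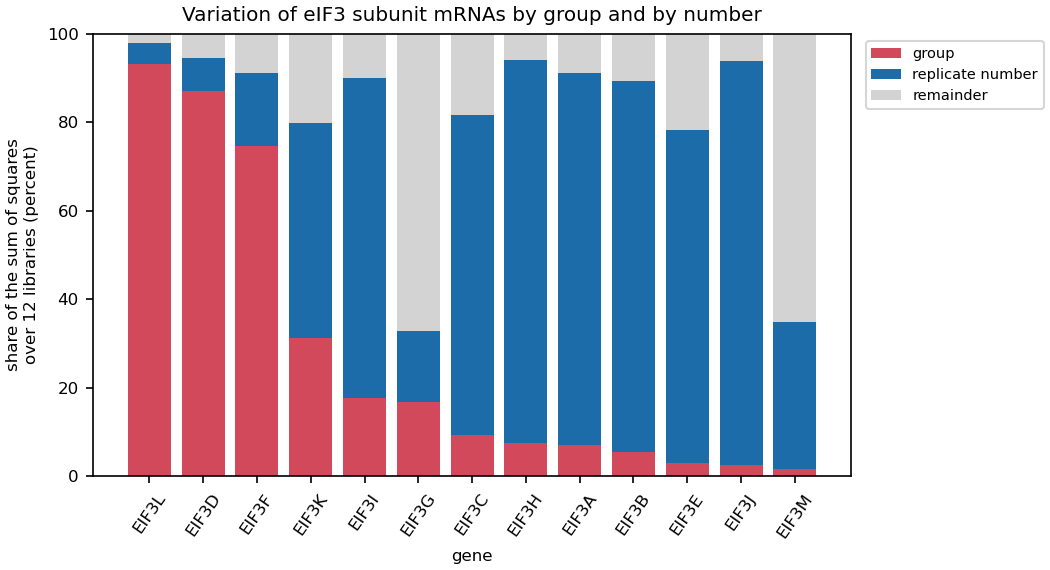
Share of the sum of squares over 12 libraries (percent, vertical axis from 0 to 100) that group (red), library number (blue) and the remainder (grey) take in each of 13 eIF3 subunit mRNAs. Group takes 93.1% in EIF3L, 87.1% in EIF3D and 74.7% in EIF3F, and number takes most in EIF3J, EIF3H, EIF3B, EIF3A, EIF3E, EIF3I and EIF3C.

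Levels were compared between members per length, as the control rlog value minus the log2 of the coding length in kb. In this order EIF3E was highest at 13.4, followed by EIF3H (12.8), EIF3K (12.7), EIF3A (11.6), EIF3D (11.5), EIF3F (11.3), EIF3M (11.2), EIF3L (10.9) and EIF3C (5.01). EIF3A and EIF3D differed by less than the SD of EIF3A between control libraries. EIF3L, the member with the largest decrease, was thus the lowest after EIF3C in control cells in this order. No allowance was made for reads that match several genes, which may lower some members. The share of 37-base stretches found in no other gene was 0.814% in EIF3C, 36.0% in EIF3F and 60.0% in EIF3L. It was 75.1% or more in the other members. The order also depends on the length used. Per kb of all annotated exons EIF3A (10.9) came second and EIF3L (9.58) stood above EIF3M (8.47) and EIF3F (8.16).

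Outside the octamer, EIF3B and EIF3G, which carry an RNA recognition motif, the WD-repeat protein EIF3I and the loosely bound EIF3J did not pass. Their log2 fold changes for both guides were -0.04 (SE 0.057), -0.01 (SE 0.044), -0.08 (SE 0.057) and -0.05 (SE 0.078), with limma adjusted p of 0.843 or more and 0.172 or more with the block. None of the 4 had an unadjusted p under 0.05 without the block, where 821 of the 10982 genes tested had. EIF3I was below the control of its number in all 8 guide libraries.

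Among 31 other initiation factors 1 fell and 0 rose. This was EIF4B, a cofactor of the helicase eIF4A, which fell by 0.76 (SE 0.086, adjusted p = 0.00166). With the block 4 fell, the others being EIF4EBP2, a repressor of the cap-binding protein eIF4E (log2 fold change -0.18, block 0.00444), PABPC1, the poly(A)-binding protein (-0.17, block 0.0351), and EIF4G2, a relative of the scaffold eIF4G (-0.13, block 0.0397). The median of this list was -0.01, against -0.01 over all genes. Of 9 COP9 signalosome subunits and 9 subunits of the proteasome lid, which share the PCI and MPN layout of the octamer, limma called 0 in either direction, with or without the block. Their medians were -0.01 and -0.05. Without the block, 1 and 0 of their members had an unadjusted limma p under 0.05, as had 821 of the 10982 genes tested.

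The genes whose values resembled those of EIF3L and EIF3D most were named by Pearson's r over the 12 libraries. The nearest to EIF3L was EIF3D (0.985), followed by EIF4B (0.974), RPL6 (0.958), a protein of the large ribosomal subunit, AHCY (0.953), which breaks down S-adenosylhomocysteine, and YBX1 (0.950). The nearest to EIF3D were EIF3L, EIF4B (0.972), AHCY (0.967), the ATP synthase subunit ATP5F1A (0.963) and citrate synthase CS (0.960). EIF3F was in place 12 for EIF3L and in place 10 for EIF3D. The points share 3 groups and 4 numbers, so these values are a description only. On deviations from the group means EIF3L had r = 0.90 with EIF3D, 0.87 with AHCY, 0.85 with EIF3K, 0.84 with EIF3F, 0.75 with RPL6, 0.57 with EIF4B and 0.25 with YBX1.

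In GRCh38 (GENCODE 29), EIF3L (ENSG00000100129.17) occupies 37848868 to 37889407 of chromosome 22, forward strand, and EIF3D (ENSG00000100353.17) occupies 36510850 to 36529436 of the same chromosome, reverse strand. EIF3F and EIF3M are both on chromosome 11, at 7970251 to 8001862 and 32583798 to 32606262, and EIF3E and EIF3H both on chromosome 8, at 108201216 to 108435333 and 116642130 to 116766925. EIF3A is on chromosome 10 at 119033670 to 119080823, EIF3C on chromosome 16 at 28688558 to 28735730 and EIF3K on chromosome 19 at 38619082 to 38636955. The library kit does not mark strand. Protein-coding genes on the other strand overlap EIF3A (NANOS1, 63 bp), EIF3H (UTP23, 423 bp), EIF3L (ANKRD54, 460 bp) and EIF3M (CCDC73, 4017 bp). Pseudogenes or an antisense transcript on the other strand overlap EIF3C, EIF3E and EIF3M. Reads in such overlaps cannot be assigned to a single gene by strand.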

How the data were processed

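The authors deposited log2 values (rlog, made with DESeq2) for 19755 protein-coding genes in 12 libraries of poly(A)-selected RNA, read as 37 bp paired ends. Their processing notes name STAR 2.7.5a, HTSeq 0.6.1pl, Picard 2.9.4 and bcl2fastq 2.20.0.422, and the GRCh38 genome. Parameters and annotation are not given in the sources used here. The table's name states that duplicate reads were removed, which lowers abundant transcripts most, and rlog shrinks weak genes, so fold changes may be understated. Deposited fold changes, p-values and scaled scores of the authors were not used.

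The 10982 genes whose rlog values averaged 4 or more entered two-sided limma tests (version 3.58.1 under R 4.3.3, lmFit and trended eBayes). Their p-values were adjusted together by Benjamini-Hochberg, and the threshold was 0.05. Both guides against control used a 2-level model, single guides a 3-group model. Single values and within-library differences were tested with exact permutation tests (scipy 1.17.1), which did not keep libraries of the same number together. Whether replicates came from separate cultures is not stated, so p-values measure only the spread between these libraries, which may be technical. Deviations from group means correlated at 0.38 to 0.78 over 12 pairs of libraries with the same number. With different numbers they correlated at -0.74 to 0.75, so the ranges overlap. The best match of a library in another group had its own number in 19 of 24 comparisons. The number was therefore taken to pair libraries, on the data alone.

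Named were all 9 members, every other eIF3 subunit, genes past the threshold in the related lists (up to 6 a list), YBX1, and the 5 nearest genes of EIF3L and EIF3D. Members and lists were chosen with earlier results of these data known. Scripts were tested on simulated data. Alternatives covered the block, the filter, the scaling, the trend, library subsets and leaving out libraries. The value of 1 marker gene is not reported here.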

Additional observations from a re-analysis of the deposited data

How the results depend on the processing

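No value of a called member reversed under any alternative. Of 1629 values of members under alternatives, 1515 kept their side of the threshold, 38 lost a call and 76 gained one, and 109 values of members that were not called changed sign. EIF3L, EIF3D and EIF3F never changed sign. The median log2 fold change of all genes was -0.0059 as deposited, -0.0024 after quantile scaling and -0.0073 with 1 common median. Depth is unknown, so it cannot be said which member's precision it limits.

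With the replicate block, the genes called were 593 for both guides (11 without it), 352 for sgRNA1 (5) and 434 for sgRNA2 (4), and the members called 3, 3 and 3 (2, 2 and 1). It changed no other call of a member than those of EIF3D and EIF3F given above. For both guides, 5 genes and 1 member were called with no filter on the mean level, and 6 genes in the 3-group model. For sgRNA1 1 member was called with no filter and 1 after quantile scaling. Libraries 1 and 2 alone gave 1, 3 and 1 genes and 0, 0 and 0 members for both guides, sgRNA1 and sgRNA2. Libraries 3 and 4 alone gave 74, 48 and 129 genes, and 2 members for sgRNA2. There the EIF3D minus EIF3E difference was -0.49, against -0.16 in libraries 1 and 2.

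Leaving out 1 library or 1 number gave 0 to 10 genes and 0 to 2 members for both guides, 3 to 9 and 1 to 2 for sgRNA1, 1 to 5 and 0 to 1 for sgRNA2, and 0 to 1 genes and 0 members between the guides. With the replicate block, chosen after seeing the data for these fits, it gave 2 to 4, 3 to 4 and 2 to 3 members, and 0 to 1 between the guides. The member called there was EIF3L, without control library 2 (adjusted p = 0.0222) or 3 (0.0499), which are not in the contrast. With the block 2 members were called for sgRNA2 with no filter, after quantile scaling, and in libraries 1 and 2 or 3 and 4 alone, 3 with a common median, and 1 between the guides in libraries 1 and 2.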
